A study of Mus musculus with 8 samples.

Results

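The 43 genes described here encode proteins of the G2 phase and of mitosis. They were taken by symbol from a fixed list, and all 43 were among the 18957 genes listed in the count data of sorted mouse cardiac fibroblasts. RNA was measured by RNA-Seq in PDGFRA-positive, lineage-negative cells isolated by fluorescence-activated sorting from the ventricles of mice aged 3 to 4 weeks on a mixed C57BL/6 background. There were 4 libraries from WT littermates, which carried no Cre, and 4 from *Pdgfra-Cre:LmnaF/F* mice, in which a *Pdgfra-Cre* BAC transgene removes the floxed exon 2 of both *Lmna* alleles. The Cre transgene is also active in a subset of cardiac myocytes, and *Pdgfra-Cre* mice without a floxed allele were not sequenced, so effects of Cre and of *Lmna* deletion cannot be told apart. The question put to these genes was whether their transcript levels differed between WT fibroblasts and fibroblasts in which *Lmna*, which encodes the nuclear lamina protein lamin A/C, had been targeted.

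In a dividing cell, cyclin A and cyclin B bind CDK1, and the CDC25 phosphatases switch the complex on at the end of G2. The mitotic kinases then build the spindle, kinetochores attach the chromosomes to it, the spindle checkpoint holds the anaphase-promoting complex back until every chromosome is attached, and the cell is cleaved at its midzone. Many of these genes are transcribed mainly from late S phase to mitosis, through promoters that carry a CHR element and CCAAT boxes and are read by the DREAM, B-MYB and FOXM1 complexes. Their transcripts are therefore scarce in a population in which few cells divide. In bulk RNA, fewer cells in G2 and mitosis and less of these transcripts per cell cannot be told apart.

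The depth was 2080555 to 12502949 counts per library, the lowest being WT 2 and the next lowest WT 3, with 6345584 counts. *Lmna*, the targeted gene, had 331, 274, 483 and 374 CPM (counts scaled to a common library size) in WT 1 to 4 and 126, 97.4, 130 and 90.4 CPM in *Pdgfra-Cre:LmnaF/F* 1 to 4, a log2 fold change of -1.72 (SE 0.22, edgeR adjusted p = 0.00492). The summed level of 8 fibroblast markers lay between 48869 and 56433 CPM in the WT and between 42217 and 58684 CPM in the *Pdgfra-Cre:LmnaF/F* libraries. Y-linked transcripts, 4 genes summed, were at 143 CPM or more in WT 1, WT 2, WT 4 and *Pdgfra-Cre:LmnaF/F* 4 and at 1.96 CPM or less in the other 4 libraries, so the genotypes were not balanced in this respect. The labels do not say whether the 4 libraries of a genotype come from separate mice, and p-values measure only the spread between these libraries.

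The promoters of *Mki67*, *Jpt1*, *Ect2*, *Cdc20* and *Racgap1*, which are among the 6 members with the lowest p in the edgeR test, are shown for elements that were not used in choosing the members. *Prc1*, the other of these 6, is not printed because the bases upstream of its start lie in annotated exons. The RefSeq promoter table (GRCm38.p6, the same build as mm10) holds 37 of the 43 genes. The windows run from 250 bases upstream to 50 bases downstream of the start, and both strands were searched. Of the 37 windows, 27 (73.0%) held the CHR letters TTTGAA, against 20.2% of 27025 genes, and 4 (10.8%) held the variant TTCGAA, against 1.80%. The CCAAT box was found in 29 (78.4%), against 41.1% of all genes, and 25 windows (67.6%) held both a CHR in either form and a CCAAT box, against 8.61%. At least 2 CHR matches were present in 11 (29.7%), against 2.95%. The E2F letters TTGGCGC were in 4 windows (10.8%, against 2.85%), and TTCCCGC in 0 (against 5.29%). These shares describe letters and not binding. In the upstream stretches below, written 5′ to 3′ on the strand of the gene, capitals mark the CHR, CCAAT and E2F letters, read on either strand. The CCAAT box read on the opposite strand ends in letters with which the E2F form TTGGCGC begins, so these can overlap, as they do at the start of *Ect2* outside the stretch printed.
Mki67, chr7:135716380-135716629, minus strand: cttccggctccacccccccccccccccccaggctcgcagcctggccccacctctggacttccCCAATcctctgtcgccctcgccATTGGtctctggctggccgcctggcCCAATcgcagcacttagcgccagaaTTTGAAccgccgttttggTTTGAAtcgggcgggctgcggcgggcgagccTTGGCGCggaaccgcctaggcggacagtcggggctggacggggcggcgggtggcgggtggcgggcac
Jpt1, chr11:115514394-115514643, minus strand: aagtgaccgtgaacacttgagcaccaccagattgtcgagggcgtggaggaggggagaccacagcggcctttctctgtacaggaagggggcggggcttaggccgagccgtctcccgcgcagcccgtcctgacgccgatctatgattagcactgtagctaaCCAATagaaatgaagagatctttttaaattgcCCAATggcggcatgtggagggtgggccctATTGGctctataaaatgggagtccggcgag
Ect2, chr3:27153879-27154025, minus strand: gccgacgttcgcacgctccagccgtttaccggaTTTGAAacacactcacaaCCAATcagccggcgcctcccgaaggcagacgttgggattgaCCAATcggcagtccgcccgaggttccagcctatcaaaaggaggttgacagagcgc
Cdc20, chr4:118437353-118437593, minus strand: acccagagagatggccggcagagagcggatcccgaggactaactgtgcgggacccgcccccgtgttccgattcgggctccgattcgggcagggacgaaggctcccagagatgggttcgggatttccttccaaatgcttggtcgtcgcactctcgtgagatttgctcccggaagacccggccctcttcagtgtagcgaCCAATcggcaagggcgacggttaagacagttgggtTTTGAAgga
Racgap1, chr15:99651657-99651906, minus strand: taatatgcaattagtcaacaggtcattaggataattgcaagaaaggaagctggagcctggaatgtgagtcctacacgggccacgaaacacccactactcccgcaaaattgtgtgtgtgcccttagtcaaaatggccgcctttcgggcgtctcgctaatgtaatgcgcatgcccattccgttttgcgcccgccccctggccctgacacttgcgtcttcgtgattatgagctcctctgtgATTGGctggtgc

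*Mki67* carried 3 CCAAT boxes, at positions -188, -166 and -141 from the start, followed by CHR letters at -116 and -98 and E2F letters at -67. *Ect2* had CHR letters at -114 and CCAAT boxes at -96 and -55, and, outside the stretch printed, a CCAAT box at 1, E2F letters at -2 and CHR letters at 39. *Cdc20* had a CCAAT box at -53 and the CHR at -18, and a further CCAAT box at -8 outside the stretch. In *Racgap1* the CCAAT box stood at -12 and the CHR at 5, outside the stretch printed. *Jpt1* differed from these 4, with 3 CCAAT boxes at -91, -59 and -30 and no CHR or E2F letters in its window.

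Transcript levels of the mitotic genes were low and unevenly spread. The members summed to 450, 1237, 762 and 493 CPM in WT 1 to 4 and to 409, 437, 331 and 421 CPM in *Pdgfra-Cre:LmnaF/F* 1 to 4. Only WT 2 and WT 3 stood well above the *Pdgfra-Cre:LmnaF/F* libraries. The means of 736 ± 362 and 400 ± 47.3 CPM (SD, n = 4) gave a ratio of 0.543 to the WT. *Jpt1*, *Ckap5* and *Smc4* made up 63.6% of the summed CPM of a library, as a mean over the libraries. The other 40 genes summed to 114, 819, 353 and 130 CPM in the WT and to 108, 125, 114 and 157 CPM in the *Pdgfra-Cre:LmnaF/F* libraries, so WT 1 and WT 4 lay within the range of the mutant libraries and WT 2 and WT 3 far above it.

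**Figure D1:**
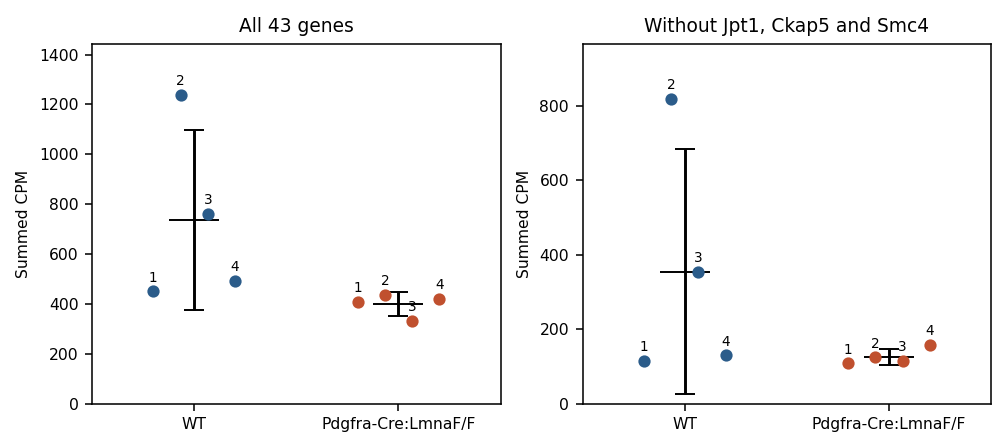
Summed CPM per library (y axis, linear, from 0) of all 43 genes on the left and of the 40 genes other than Jpt1, Ckap5 and Smc4 on the right, by genotype. Points are libraries with their replicate number, horizontal marks the mean and bars the SD (n = 4), and WT 2 (1237 and 819 CPM) and WT 3 (762 and 353 CPM) lie above the 6 other libraries in both panels.

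In mean CPM per kilobase of exon, which allows genes to be set side by side, *Jpt1* was the most abundant member in the WT fibroblasts at 97.3. It was followed by *Ckap5* at 13.2, *Smc4* at 9.19, *Cks1b* at 8.18 and *Cdc20* at 6.27. The place of *Cdc20* rested on WT 2, at 34.7 CPM against 2.71 to 4.79 CPM in the other WT libraries. *Mki67* stood at 2.70, and *Ttk*, at 0.0337, was the scarcest. Many raw counts were close to the floor. A count of 0 allows up to 3 counts, which was 0.25 to 0.479 CPM in 7 libraries and 1.51 CPM in WT 2. Counts of 0 made up 15 of 172 WT values (8.72%) and 40 of 172 *Pdgfra-Cre:LmnaF/F* values (23.3%), whereas over all listed genes the shares were 21.2% and 21.9%. The number of members at 0 was 10, 0, 2 and 3 in WT 1 to 4 and 9, 10, 16 and 5 in *Pdgfra-Cre:LmnaF/F* 1 to 4. A total of 23 members had a 0 in one library and more than 10 counts in another. The median biological coefficient of variation estimated by edgeR was 0.951 for the members tested and 0.352 for all genes tested.

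**Figure D2:**
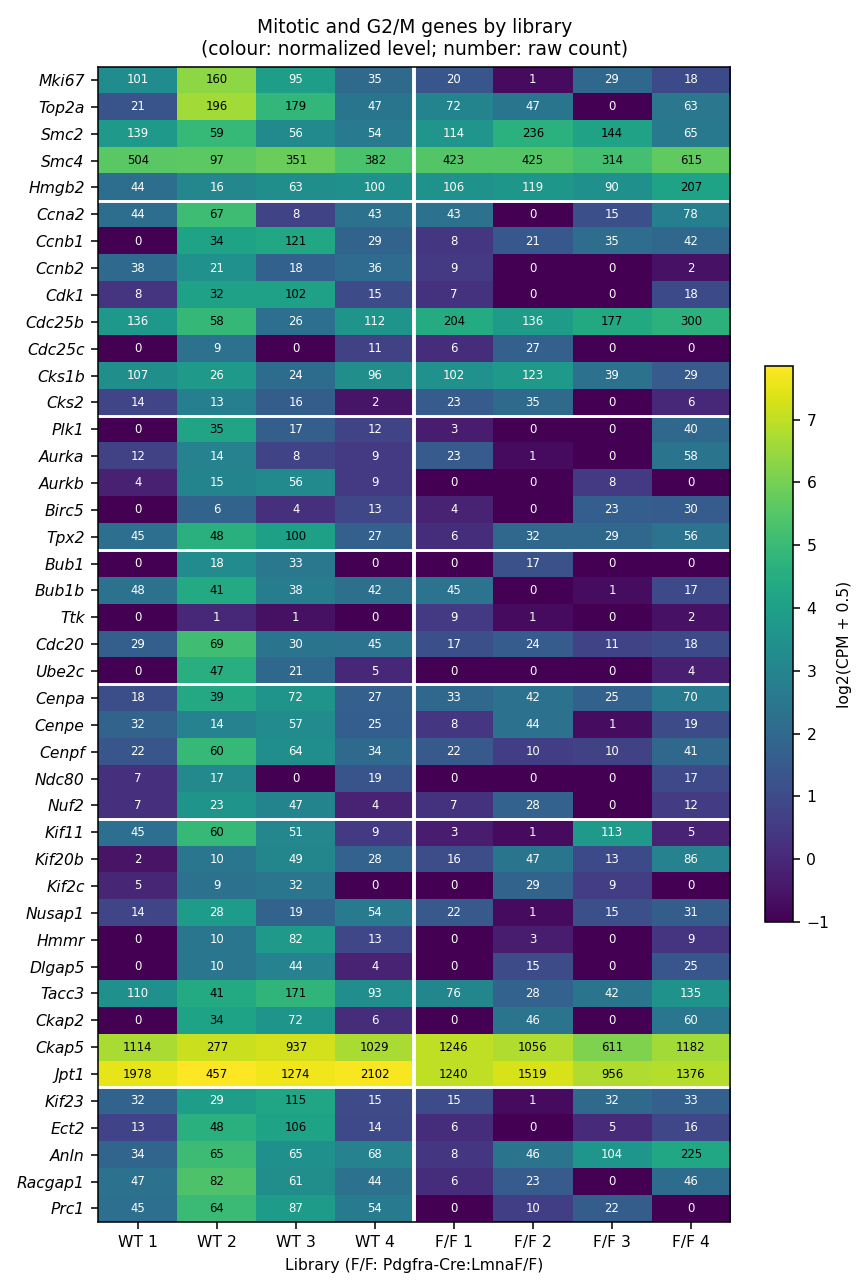
Each row is a gene, in the order of the roles described in the text and separated by white lines, and each column a library (F/F stands for Pdgfra-Cre:LmnaF/F). Colour gives log2(CPM + 0.5) and the printed number the raw count. The columns WT 2 and WT 3 are brighter than the others in most rows, and 16 genes are at 0 counts in F/F 3.

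In the edgeR quasi-likelihood test across all genes, 35 members passed the filter on low counts and 0 had an adjusted p (Benjamini-Hochberg) under 0.05 in either direction. Of all 13036 genes tested, 0.238% were lower and 0.169% higher in the *Pdgfra-Cre:LmnaF/F* fibroblasts at that threshold. At an unadjusted p under 0.05, 13 members were lower, against 5.65% of the genes tested, and 0 were higher, against 6.24%. The 8 members that did not pass were *Cdc25c*, *Aurkb*, *Bub1*, *Ttk*, *Ube2c*, *Ndc80*, *Nuf2* and *Hmmr*. Since a scarce gene can pass through the group in which it is high, the fit without a filter was used to count over all 43. In it 38 genes (88.4%) had a log2 fold change below 0 and 5 above 0, against 47.8% of all listed genes below 0. The median was -1.75, against 0.037 for all genes, with a range of -6.01 (*Ube2c*) to 0.99 (*Ttk*). With 1 library left out *Ube2c* ran from -8.74 (without *Pdgfra-Cre:LmnaF/F* 4) to -3.73 (without WT 2). *Ttk* ran from -0.59 (without *Pdgfra-Cre:LmnaF/F* 1) to 2.31 (without WT 2). With all libraries in this fit, 17 of 43 members (39.5%) were lower at an unadjusted p under 0.05, against 5.69% of genes. An edgeR adjusted p under 0.05 was reached by 4, namely *Mki67*, *Top2a*, *Ect2* and *Prc1*, against 0.781%. Without WT 2 in that fit 0 members had an adjusted p under 0.05, against 1.33% of genes in either direction, and the log2 fold changes of these 4 were -2.43, -1.42, -3.34 and -3.15. DESeq2 gave 8 members lower (*Mki67*, *Ccnb2*, *Cdk1*, *Cdc20*, *Jpt1*, *Ect2*, *Racgap1* and *Prc1*), against 1.29% of genes, and limma-voom with quality weights gave 0, against 0.483%. With all libraries no member was higher at an adjusted p under 0.05, against 0.665% of genes in edgeR without a filter, 1.04% in DESeq2 and 0.483% in limma-voom. In edgeR without a filter 0 were higher at an unadjusted p under 0.05, against 5.33%. Without WT 2 in that fit *Cdc25b* was higher, with a log2 fold change of 1.06 (edgeR unadjusted p = 0.0382, adjusted p = 0.543).

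**Figure D3:**
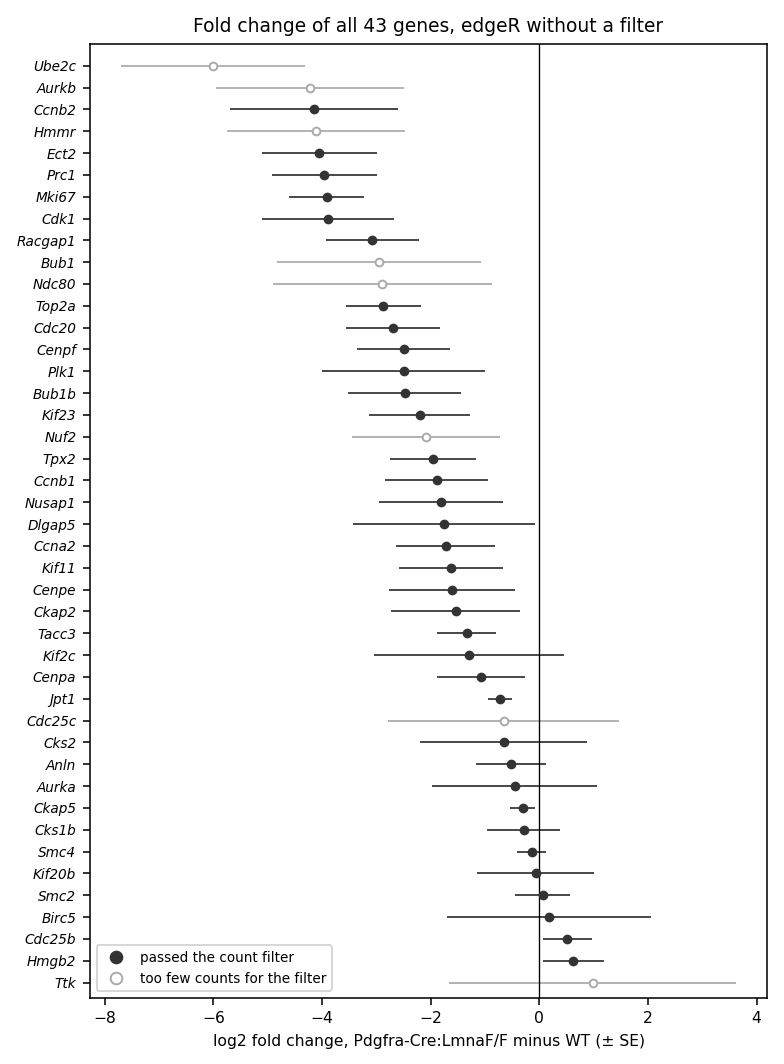
Log2 fold change (x axis, Pdgfra-Cre:LmnaF/F minus WT) with its SE for each of the 43 genes, sorted, from the edgeR fit without a filter. Filled points are the 35 genes that also passed the filter and open points the 8 that did not, and 38 of the points lie below 0.

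A pair of WT libraries held most of the highest values. WT 2 held the highest value of 29 members and WT 3 that of 12, where each held the highest value of 14.1% and 14.2% of all listed genes. Both lay above WT 1 and WT 4 in 32 members (74.4%), against 11.9% of all listed genes. WT 2 was above all 4 *Pdgfra-Cre:LmnaF/F* libraries for 39 members and WT 3 for 29, while WT 1 was so for 6 and WT 4 for 14, against 21.0%, 19.4%, 17.2% and 18.8% of all listed genes for WT 2, 3, 1 and 4. WT 1 lay inside the range of the *Pdgfra-Cre:LmnaF/F* libraries for 32 members and WT 4 for 26. With WT 2 left out, 33 members were below 0 with a median of -1.21, and with WT 3 left out 39 were, with a median of -1.61. With both left out, an alternative chosen after their values were seen, 23 were below and 20 above 0, and the median was -0.066 (0.055 for all genes). In that fit 1 of 37 members tested was lower at an unadjusted p under 0.05, against 3.34% of the genes tested. Since WT 2 and WT 3 held most of the highest values, leaving both out was bound to move most fold changes upwards. Only WT 1 and WT 4 then remained. The same holds where this setting is given for single genes and roles below. The 6 other single libraries, left out one at a time, gave 38 or 39 members below 0 and medians of -2.16 to -1.60. Leaving out WT 2 moved the fold change of 26 members by more than 1.5 times and WT 3 that of 7, all upwards, and *Pdgfra-Cre:LmnaF/F* 1, 2, 3 and 4 that of 3, 6, 3 and 12, all downwards, while WT 1 and WT 4 moved 0 by that much.

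**Figure D4:**
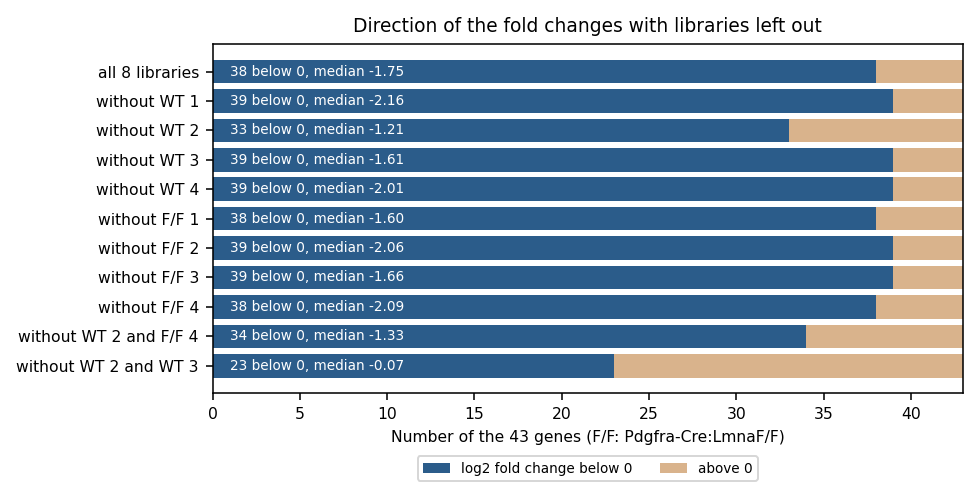
Number of the 43 genes (x axis) with a log2 fold change below 0 (blue) and above 0 (tan) in the edgeR fit without a filter, with all 8 libraries and with libraries left out. The count below 0 is 33 to 39 with a single library left out and 23 with WT 2 and WT 3 left out.

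WT 2 and WT 3 were the libraries with the lowest depth. With every library thinned to 2080555 counts, 40 members were below 0 with a median of -1.88. WT 2 had high and WT 3 low Y-linked transcript levels, and with these levels as a covariate the median was -1.92 and 0 of 35 members had an adjusted p under 0.05, against 0.913% of the genes tested. Among markers of other cells, 6 mesothelial genes summed to 45.8 CPM in WT 2 and 11.02 CPM in WT 3, against 22.7 and 23.1 CPM in WT 1 and WT 4 and 6.67 to 15.7 CPM in the *Pdgfra-Cre:LmnaF/F* libraries. Hematopoietic markers, 7 genes, summed to 105 and 162 CPM in WT 2 and WT 3, to 85.0 and 37.4 CPM in WT 1 and WT 4, and to 43.9 to 390 CPM in the *Pdgfra-Cre:LmnaF/F* libraries. Endothelial markers lay between 554 and 759 CPM in the WT, with WT 2 the lowest, and between 428 and 559 CPM in the *Pdgfra-Cre:LmnaF/F* libraries. Cardiac myocyte markers stood at 5894 CPM in *Pdgfra-Cre:LmnaF/F* 4 and at 309 to 1030 CPM in the other libraries. The erythroid, mural and Schwann lists overlapped between the genotypes, at 33.9 to 366, 230 to 392 and 3.52 to 11.02 CPM in the WT and 16.8 to 667, 203 to 386 and 2.29 to 11.3 CPM in the *Pdgfra-Cre:LmnaF/F* libraries. At least 1 library had a count of 0 for 5 of 6 mesothelial markers, 4 of 7 hematopoietic markers (*Ptprc*, *Cd68*, *Cd3e* and *Cd79a*), 4 of 7 erythroid, 5 of 5 Schwann and 1 of 9 cardiac myocyte markers, and for 0 of the fibroblast, endothelial and mural markers. In WT 3 the mesothelial genes *Wt1* and *Lrrn4* and the leukocyte gene *Cd68* were at 0. The part of these cells in the levels of the mitotic genes was not tested.

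Among the 5 genes of chromosome structure, *Mki67*, which encodes the Ki-67 protein that coats mitotic chromosomes, had the lowest p of all 43 members. *Mki67* (ENSMUSG00000031004.8, chromosome 7 from 135689784 to 135716361) had 101, 160, 95 and 35 counts in WT 1 to 4 and 20, 1, 29 and 18 counts in *Pdgfra-Cre:LmnaF/F* 1 to 4. Every WT library lay above every *Pdgfra-Cre:LmnaF/F* library once scaled for depth, but WT 4 (3.62 CPM) only just above *Pdgfra-Cre:LmnaF/F* 3 (3.34 CPM). WT 2 (80.5 CPM) lay far above the other WT libraries (3.62 to 15.2 CPM). The means were 27.2 ± 35.9 and 1.75 ± 1.34 CPM (SD, n = 4), a log2 fold change of -3.91 (SE 0.94, edgeR adjusted p = 0.103). It was -2.42 without WT 2 and -1.91 without WT 2 and WT 3. *Top2a*, the topoisomerase that untangles sister chromatids (ENSMUSG00000020914.17, chromosome 11 from 98992943 to 99024189), had 21, 196, 179 and 47 counts in the WT and 72, 47, 0 and 63 counts in the *Pdgfra-Cre:LmnaF/F* libraries. Its WT 1 and WT 4 values, 1.96 and 4.87 CPM, were inside the range of 0 to 7.45 CPM of the other genotype. The log2 fold change of -2.87 (SE 1.06, edgeR adjusted p = 0.296) was -1.41 without WT 2 and turned to 0.36 without WT 2 and WT 3.

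*Smc4*, a core subunit of condensin (ENSMUSG00000034349.14, chromosome 3 from 69004738 to 69034623), was counted well in each library, with 504, 97, 351 and 382 counts against 423, 425, 314 and 615. Its level was 47.9 ± 6.78 CPM in the WT and 43.9 ± 6.17 CPM in the *Pdgfra-Cre:LmnaF/F* fibroblasts (SD, n = 4), and the log2 fold change of -0.12 (SE 0.22, edgeR adjusted p = 0.892) was smaller than its error. *Smc2*, the partner of SMC4, had a log2 fold change of 0.07 (SE 0.56), and in the fit without a filter 0.65 without WT 2 and -0.32 without *Pdgfra-Cre:LmnaF/F* 2. *Hmgb2*, a chromatin protein that is abundant in cycling cells, was named after its values were seen, as the only member whose *Pdgfra-Cre:LmnaF/F* libraries all lay above the WT, by less than 1 count, with WT 4 and *Pdgfra-Cre:LmnaF/F* 3 both at 10.4 CPM. It had 44, 16, 63 and 100 counts in the WT and 106, 119, 90 and 207 in the *Pdgfra-Cre:LmnaF/F* libraries, or 8.15 ± 2.88 against 12.7 ± 3.12 CPM (SD, n = 4), with a log2 fold change of 0.65 (SE 0.47, edgeR adjusted p = 0.654). Of all listed genes, 2.89% were separated in this direction, so 1 of 43 members is near the background.

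The 8 genes of cyclins, CDK1 and its activators summed to 32.4, 131, 50.3 and 35.6 CPM in WT 1 to 4 and to 41.6, 35.7, 30.6 and 39.6 CPM in *Pdgfra-Cre:LmnaF/F* 1 to 4, and 7 had a log2 fold change below 0, or 5 without WT 2. WT 1 and WT 4 were among the mutant values. *Ccnb2*, which encodes cyclin B2 (ENSMUSG00000032218.7, chromosome 9 from 70407692 to 70421547), had 38, 21, 18 and 36 counts in the WT and 9, 0, 0 and 2 counts in the *Pdgfra-Cre:LmnaF/F* libraries. The groups did not overlap, at 2.88 to 10.6 against 0 to 0.931 CPM. The log2 fold change was -4.14 (SE 1.45, edgeR adjusted p = 0.257). It was -6.09 without *Pdgfra-Cre:LmnaF/F* 1, -3.56 without WT 2, and -3.68 without WT 2 and WT 3. *Cdk1*, the kinase that drives entry into mitosis (ENSMUSG00000019942.13, chromosome 10 from 69335146 to 69352938), had 8, 32, 102 and 15 counts against 7, 0, 0 and 18. WT 2 and WT 3 were close to each other at 16.1 and 16.3 CPM, and WT 1 at 0.747 CPM lay near *Pdgfra-Cre:LmnaF/F* 1 at 0.724 CPM. The log2 fold change of *Cdk1* was -3.88 (SE 1.42, edgeR adjusted p = 0.284). It ran from -5.04 (without *Pdgfra-Cre:LmnaF/F* 4) to -3.38 (without WT 3) when 1 library was left out, and was -1.04 without WT 2 and WT 3.

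*Cdc25b*, the phosphatase that activates cyclin B and CDK1 (ENSMUSG00000027330.16, chromosome 2 from 131186949 to 131198497), had 136, 58, 26 and 112 counts in the WT and 204, 136, 177 and 300 counts in the *Pdgfra-Cre:LmnaF/F* libraries. It was at 14.4 ± 10.6 against 20.2 ± 4.48 CPM (SD, n = 4), with WT 2 (29.2 CPM) above all other libraries and a log2 fold change of 0.53 (SE 0.48, edgeR adjusted p = 0.750), or 1.07 without WT 2. It overlaps *Spef1* on the opposite strand. The cyclin genes *Ccna2* and *Ccnb1* had log2 fold changes of -1.72 (SE 1.14) and -1.88 (SE 1.13), and the CDK-binding genes *Cks1b* and *Cks2* of -0.27 (SE 0.63) and -0.64 (SE 1.43). In the fit without a filter *Ccna2* was at -0.070 and *Cks2* at 0.26 when WT 2 was left out, *Ccna2* at -2.34 without *Pdgfra-Cre:LmnaF/F* 4 and *Cks2* at -1.41 without *Pdgfra-Cre:LmnaF/F* 2. *Ccnb1* was at -1.29 in that fit without WT 3, and at 0.79 when WT 2 and WT 3 were left out. *Cdc25c* had at most 27 counts in any library.

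The mitotic kinases and their partners, 5 genes, summed to 5.70, 59.4, 29.6 and 7.25 CPM in the WT and to 3.72, 3.44, 6.91 and 15.3 CPM in the *Pdgfra-Cre:LmnaF/F* libraries. *Tpx2*, which targets Aurora A to the spindle (ENSMUSG00000027469.16, chromosome 2 from 152847964 to 152895321), had 45, 48, 100 and 27 counts in the WT and 6, 32, 29 and 56 counts in the *Pdgfra-Cre:LmnaF/F* libraries. WT 1 (4.20 CPM) lay below *Pdgfra-Cre:LmnaF/F* 4 (4.67 CPM), and WT 4 (2.80 CPM) below *Pdgfra-Cre:LmnaF/F* 2, 3 and 4. The log2 fold change was -1.94 (SE 0.81, edgeR adjusted p = 0.364), -1.35 without WT 2 and -0.24 without WT 2 and WT 3. *Plk1*, the polo-like kinase of mitosis, had 0, 35, 17 and 12 counts against 3, 0, 0 and 40, and *Aurkb*, the kinase of the chromosomal passenger complex, 4, 15, 56 and 9 against 0, 0, 8 and 0. For *Aurka* and *Birc5* the log2 fold changes were -0.42 (SE 1.46) and 0.25 (SE 1.61), and in the fit without a filter *Aurka* was at 0.70 without WT 2 and -1.58 without *Pdgfra-Cre:LmnaF/F* 4, and *Birc5* at 1.04 without WT 2 and -0.33 without *Pdgfra-Cre:LmnaF/F* 3.

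The genes of the spindle checkpoint and the anaphase-promoting complex summed to 7.19, 88.6, 19.7 and 9.53 CPM in the WT and to 7.34, 4.38, 1.38 and 3.42 CPM in the *Pdgfra-Cre:LmnaF/F* libraries. *Cdc20*, the activator of the complex at anaphase (ENSMUSG00000006398.15, chromosome 4 from 118432901 to 118437352), had 29, 69, 30 and 45 counts in the WT and 17, 24, 11 and 18 counts in the *Pdgfra-Cre:LmnaF/F* libraries. The lowest WT library, at 2.71 CPM, lay just above the highest *Pdgfra-Cre:LmnaF/F* library, at 2.50 CPM, while WT 2 reached 34.7 CPM. *Cdc20* had a log2 fold change of -2.69 (SE 0.88, edgeR adjusted p = 0.222), and it overlaps *Elovl1* on the opposite strand. The value was -1.20 without WT 2 and -1.08 without WT 2 and WT 3. *Ttk*, the checkpoint kinase MPS1, had 0, 1, 1 and 0 counts against 9, 1, 0 and 2, so no library exceeded 9 counts. *Ube2c*, the ubiquitin-conjugating enzyme of the complex, had 0, 47, 21 and 5 counts in the WT and 0, 0, 0 and 4 in the *Pdgfra-Cre:LmnaF/F* libraries, so nearly all of its counts came from WT 2 and WT 3. The checkpoint gene *Bub1b* had 48, 41, 38 and 42 counts against 45, 0, 1 and 17, and its log2 fold change was -2.48 (SE 1.20, edgeR adjusted p = 0.444), and in the fit without a filter -4.03 without *Pdgfra-Cre:LmnaF/F* 1 and -1.68 without WT 2. Its paralog *Bub1* had 0, 18, 33 and 0 against 0, 17, 0 and 0.

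All 5 centromere and kinetochore genes had a log2 fold change below 0, with a median of -2.08 in the fit without a filter, which was -1.29 without WT 2. *Cenpf*, a large protein of the outer kinetochore (ENSMUSG00000026605.14, chromosome 1 from 189640606 to 189688086), had 22, 60, 64 and 34 counts in the WT and 22, 10, 10 and 41 counts in the *Pdgfra-Cre:LmnaF/F* libraries. WT 2 and WT 3, at 30.2 and 10.2 CPM, were high, and WT 1 at 2.06 CPM was below *Pdgfra-Cre:LmnaF/F* 1 at 2.28 and *Pdgfra-Cre:LmnaF/F* 4 at 3.42 CPM. The log2 fold change was -2.49 (SE 0.89, edgeR adjusted p = 0.267), -1.41 without WT 2 and -0.51 without WT 2 and WT 3. *Cenpa*, the centromeric histone H3, and *Cenpe*, the kinetochore kinesin, had log2 fold changes of -1.07 (SE 0.79) and -1.59 (SE 1.10), and in the fit without a filter *Cenpa* was at -0.37 without WT 2 and *Cenpe* at -2.66 without *Pdgfra-Cre:LmnaF/F* 2. *Ndc80* and *Nuf2*, which form the microtubule-binding complex, had at most 19 and 47 counts in any library.

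Among the 10 genes of spindle motors and microtubule binding, all 10 had a log2 fold change below 0, with a median of -1.44 in the fit without a filter. Without WT 2 the median was -0.79 with 9 below 0, and without WT 2 and WT 3 it was 0.17 with 5 below 0. *Jpt1*, which encodes a small microtubule-associated protein (ENSMUSG00000020737.12, chromosome 11 from 115497353 to 115514387), had 1978, 457, 1274 and 2102 counts in the WT and 1240, 1519, 956 and 1376 counts in the *Pdgfra-Cre:LmnaF/F* libraries. These were 185, 230, 204 and 218 CPM against 128, 158, 110 and 115 CPM, and the 4 WT libraries stood close together above all 4 *Pdgfra-Cre:LmnaF/F* libraries. The means of 209 ± 19.4 and 128 ± 21.8 CPM (SD, n = 4) gave a log2 fold change of -0.71 (SE 0.19, edgeR adjusted p = 0.134), or 1.63-fold lower. It was -0.83 to -0.64 in the fits that left out 1 library and -0.67 without WT 2 and WT 3, and the adjusted p over the other settings with all libraries ranged from 0.0187 (DESeq2) to 0.211. *Ckap5*, a microtubule polymerase (ENSMUSG00000040549.16, chromosome 2 from 91526762 to 91620664), had 1114, 277, 937 and 1029 counts against 1246, 1056, 611 and 1182. Its levels of 125 ± 23.1 and 102 ± 24.5 CPM (SD, n = 4) overlapped, and the log2 fold change was -0.29 (SE 0.22, edgeR adjusted p = 0.682).

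*Tacc3*, the spindle partner of CKAP5 (ENSMUSG00000037313.16, chromosome 5 from 33658128 to 33678995), had 110, 41, 171 and 93 counts in the WT and 76, 28, 42 and 135 counts in the *Pdgfra-Cre:LmnaF/F* libraries. WT 2 and WT 3 reached 20.6 and 27.3 CPM, and WT 1 and WT 4, at 10.3 and 9.63 CPM, fell between *Pdgfra-Cre:LmnaF/F* 1 (7.86 CPM) and *Pdgfra-Cre:LmnaF/F* 4 (11.2 CPM). The log2 fold change was -1.32 (SE 0.53, edgeR adjusted p = 0.340), or -0.58 without WT 2 and WT 3, and *Tacc3* overlaps *Tmem129* on the opposite strand. The other 7 genes, *Kif11*, *Kif20b*, *Kif2c*, *Nusap1*, *Hmmr*, *Dlgap5* and *Ckap2*, had log2 fold changes of -4.11 (*Hmmr*) to -0.07 (*Kif20b*) in the fit without a filter. Without WT 3 in that fit *Hmmr* was at -2.89 and *Kif20b* at 0.54. *Kif11*, at -1.62 there, ran from -5.17 (without *Pdgfra-Cre:LmnaF/F* 3) to -0.37 (without WT 2) when 1 library was left out. The motor gene *Kif11* had 113 counts in *Pdgfra-Cre:LmnaF/F* 3 and 1 to 5 counts in the other *Pdgfra-Cre:LmnaF/F* libraries.

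Cytokinesis had the lowest median of the 7 roles in the fit without a filter, -3.08, with all 5 genes below 0. Without WT 2 the median was -1.92 with 4 genes below 0, and without WT 2 and WT 3 it was -1.08, next to -1.08 for the checkpoint genes. These genes summed to 15.98, 145, 69.3 and 20.2 CPM in the WT and to 3.62, 8.34, 18.8 and 26.7 CPM in the *Pdgfra-Cre:LmnaF/F* libraries. *Ect2*, the exchange factor that activates RhoA at the cleavage furrow (ENSMUSG00000027699.19, chromosome 3 from 27097222 to 27153878), had 13, 48, 106 and 14 counts against 6, 0, 5 and 16. WT 1 and WT 4, at 1.21 and 1.45 CPM, were next to *Pdgfra-Cre:LmnaF/F* 4 at 1.33 CPM. Its log2 fold change was -4.04 (SE 1.22, edgeR adjusted p = 0.193), -4.70 without *Pdgfra-Cre:LmnaF/F* 4, -3.33 without WT 2, and -1.07 without WT 2 and WT 3. *Racgap1*, the centralspindlin subunit that recruits ECT2 (ENSMUSG00000023015.14, chromosome 15 from 99620496 to 99651656), had 47, 82, 61 and 44 counts in the WT and 6, 23, 0 and 46 counts in the *Pdgfra-Cre:LmnaF/F* libraries. Its lowest WT library, at 4.39 CPM, was just above *Pdgfra-Cre:LmnaF/F* 4, at 3.83 CPM, and the log2 fold change was -3.07 (SE 1.05, edgeR adjusted p = 0.242). Leaving out *Pdgfra-Cre:LmnaF/F* 4 gave -3.82, WT 2 gave -1.85, and WT 2 and WT 3 gave -1.39.

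*Prc1*, which bundles the midzone microtubules (ENSMUSG00000038943.16, chromosome 7 from 80294450 to 80316259), had 45, 64, 87 and 54 counts in the WT and 0, 10, 22 and 0 counts in the *Pdgfra-Cre:LmnaF/F* libraries. All 4 WT libraries (4.20 to 32.2 CPM) lay above the *Pdgfra-Cre:LmnaF/F* libraries (0 to 2.53 CPM). Its log2 fold change of -3.95 (SE 1.20, edgeR adjusted p = 0.194) was -5.27 without *Pdgfra-Cre:LmnaF/F* 3, -3.14 without WT 2, and -2.46 without WT 2 and WT 3. *Prc1* overlaps *Rccd1* on the opposite strand, and the strand setting of the counting is not given in the sources used here, so reads of overlapping pairs may not have been told apart. *Kif23*, the motor of centralspindlin, had a log2 fold change of -2.19 (SE 1.01), or -1.61 without WT 3 in the fit without a filter, and *Anln*, a scaffold of the contractile ring, of -0.50 (SE 0.81) with its highest mutant value, 18.7 CPM, in *Pdgfra-Cre:LmnaF/F* 4, and was at 0.39 without WT 2 and -1.14 without *Pdgfra-Cre:LmnaF/F* 4 in the fit without a filter. In all, 6 of the 43 members (*Mki67*, *Ccnb2*, *Cdc20*, *Jpt1*, *Racgap1* and *Prc1*) had every *Pdgfra-Cre:LmnaF/F* library below every WT library, against 2.9% of all listed genes.

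**Figure D5:**
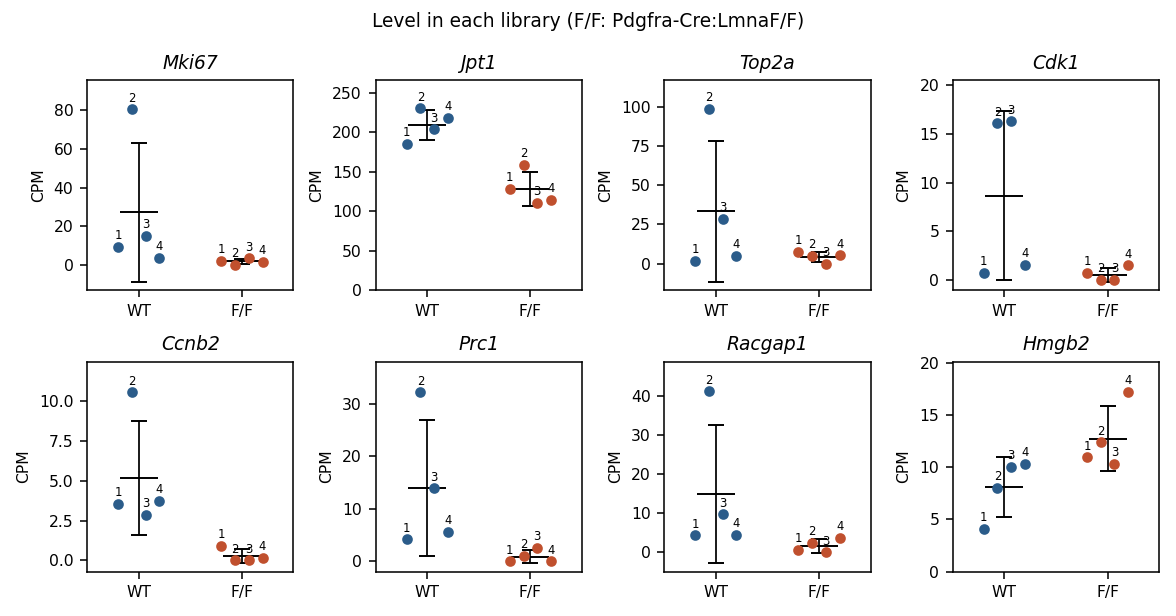
CPM per library (y axes, linear) of 8 members by genotype (F/F stands for Pdgfra-Cre:LmnaF/F), with the replicate number beside each point, the mean as a horizontal mark and the SD as a bar (n = 4). Jpt1 separates the groups with little spread (185 to 230 against 110 to 158 CPM), Top2a and Cdk1 are high in WT 2 and WT 3 only, and the groups of Hmgb2 meet at 10.4 CPM.

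Other genes of the same pathways were read from lists that hold none of the 43 members. Of 75 further mitotic genes, 56 passed the filter and 0 had an edgeR adjusted p under 0.05, with 6 lower and 1 higher at an unadjusted p under 0.05, against 5.65% and 6.24% of all genes tested. In the fit without a filter 52 of the 75 were below and 23 above 0, against 47.8% of all listed genes below 0, and their median was -0.92, or -0.24 with 42 below 0 without WT 2. They summed to 587, 1121, 692 and 600 CPM in WT 1 to 4 and to 526, 625, 680 and 549 CPM in *Pdgfra-Cre:LmnaF/F* 1 to 4, with WT 2 the highest. The genes with an adjusted p under 0.05 were *Spag5*, 1 of 75, in edgeR without a filter and *Ckap2l*, 1 of 56, in DESeq2, against 0.781% and 1.29% of genes lower in those fits. *Spag5*, named after its values were seen, had 0, 23, 62 and 13 counts in the WT and 0 in each *Pdgfra-Cre:LmnaF/F* library. *Ckap2l*, a spindle protein, had a log2 fold change of -4.42 (SE 1.59, edgeR adjusted p = 0.274), and *Incenp*, the scaffold of the chromosomal passenger complex, of -1.44 (SE 0.60, edgeR adjusted p = 0.364). *G2e3*, a ubiquitin ligase named for its expression in G2, went the other way with 0.90 (SE 0.37, edgeR adjusted p = 0.350), and these 3, named for their low p, did not overlap between the genotypes, where 2.9% of all listed genes were separated downwards and 2.89% upwards. Of 16 subunits and regulators of the anaphase-promoting complex, all tested, 0 had an unadjusted p under 0.05 and the median was -0.038. *Anapc1*, *Anapc10* and *Anapc5* had log2 fold changes of -0.31 (SE 0.18), -0.55 (SE 0.41) and 0.22 (SE 0.17).

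Among 16 transcription regulators of G2/M genes, 15 were tested and 0 passed the edgeR threshold, with 1 lower and 1 higher at an unadjusted p under 0.05, near the shares of 5.65% and 6.24% of all genes tested. Separation of the genotypes, given below for *Foxm1*, *Lin52* and *E2f4*, was found in 2.9% of all listed genes downwards and 2.89% upwards. *Foxm1*, which activates late G2 genes, had 52, 23, 41 and 30 counts in WT 1 to 4 and 22, 0, 25 and 36 counts in *Pdgfra-Cre:LmnaF/F* 1 to 4. Once scaled for depth the groups were separated by about 1 count between WT 4, at 3.11 CPM, and *Pdgfra-Cre:LmnaF/F* 4, and its log2 fold change was -1.65 (SE 1.08, edgeR adjusted p = 0.603). *Mybl2*, which encodes B-MYB, had a log2 fold change of 0.49 (SE 1.39, edgeR adjusted p = 0.940). *Lin52*, a MuvB subunit, was at 15.4, 9.56, 3.67 and 13.6 CPM in the WT and 17.9, 26.3, 44.3 and 50.3 CPM in the *Pdgfra-Cre:LmnaF/F* libraries, without overlap, a log2 fold change of 1.70 (SE 0.45, edgeR adjusted p = 0.132), and had an adjusted p under 0.05 in DESeq2 and in edgeR without a filter, as did 1.04% and 0.665% of genes in this direction. *E2f4*, the E2F of DREAM, was at 34.4 to 79.0 CPM in the WT and 18.5 to 32.7 CPM in the *Pdgfra-Cre:LmnaF/F* libraries, also without overlap, with a log2 fold change of -0.88 (SE 0.31, edgeR adjusted p = 0.264). *Rbl2*, the pocket protein of DREAM, had 0.57 (SE 0.28).

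The 36 genes of DNA replication and S phase, 33 of them tested, were close to balanced in direction with all libraries. They summed to 388, 503, 404 and 362 CPM in the WT and to 395, 432, 433 and 523 CPM in the *Pdgfra-Cre:LmnaF/F* libraries, with 19 below and 17 above 0 and a median log2 fold change of -0.039. Without WT 2, 13 were below and 23 above 0, with a median of 0.27. None had an edgeR adjusted p under 0.05, and 2 of 33 were higher at an unadjusted p under 0.05, against 6.24% of all genes tested. These were *Pcna*, the sliding clamp of DNA polymerase, with 0.66 (SE 0.25, edgeR adjusted p = 0.303), and *Slbp*, the histone mRNA binding protein, with 0.69 (SE 0.28). *Mcm2* and *Mcm5*, of the replicative helicase, had -1.36 (SE 0.68) and -0.80 (SE 0.51), and *Mcm5* was at 29.7 CPM in both WT 2 and WT 3 and at 6.17 to 12.8 CPM in the other 6 libraries. The difference between the lists of mitotic and S-phase genes was not tested.

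Of 11 CDK inhibitors, D cyclins and *Rb1*, 9 were tested and 0 had an edgeR adjusted p under 0.05, with 1 lower and 1 higher at an unadjusted p under 0.05, against 5.65% and 6.24% of all genes tested. *Ccnd1*, which encodes cyclin D1, was at 188 CPM in WT 2 and at 8.92 to 24.4 CPM in the other 7 libraries, and its log2 fold change was -1.88 (SE 0.75, edgeR adjusted p = 0.332), with an adjusted p of 0.0270 in edgeR without a filter, where 0.781% of genes were lower. *Cdkn1c*, the inhibitor p57, was at 46.5, 27.7, 15.0 and 43.3 CPM in the WT and at 57.2, 48.6, 84.4 and 81.1 CPM in the *Pdgfra-Cre:LmnaF/F* libraries, without overlap, as were 2.89% of all listed genes in this direction, with 1.02 (SE 0.33, edgeR adjusted p = 0.209). *Ccnd2* had -0.72 (SE 0.34) and *Cdkn1a*, the inhibitor p21, -0.14 (SE 0.45, edgeR adjusted p = 0.947). *Cdkn2a*, which encodes p16 and ARF, had 12 counts in *Pdgfra-Cre:LmnaF/F* 4 and 0 in the other 7 libraries.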

How the data were processed

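RNA of sorted cardiac fibroblasts was analysed as 4 WT and 4 *Pdgfra-Cre:LmnaF/F* libraries, grouped by the genotype in the sample labels. The authors used RNA with a RIN above 8, depleted ribosomal RNA, made strand-specific libraries with 150 bp paired-end reads, aligned them to mm10 with HISAT2, annotated them with GENCODE and counted them with featureCounts. The values that the authors deposited are whole-number counts for each gene symbol, used as raw counts. RUV is named with the counting, and whether it entered these counts could not be told. The submitters' processing notes name FastQC and DESeq2. The members, lists and tests were chosen with earlier results of these data known.

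Genotypes were compared in edgeR 4.0.16 under R 4.3.3 (TMM, filterByExpr, glmQLFTest, genotype as the only term, Benjamini-Hochberg over all genes tested, threshold 0.05), and the procedure was tested on simulated data. SEs are the fold change divided by the square root of F. CPM use TMM library sizes. Lists are described by counts and medians. Depth gives the precision and covers counting error only. Values in each library are given for *Lmna*, the 12 members with the lowest p, the 6 with the highest mean CPM, members with at most 3 counts throughout a genotype, and a few others as examples. From each pathway list the 3 genes with the lowest p and 7 known regulators are named. Alternatives were DESeq2 1.42.0, limma-voom 3.58.1 with quality weights, other scaling factors and filters, 1 RUVr factor, the replicate block, thinning and left-out libraries. Loci are from GENCODE and promoters from RefSeq.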

Additional observations from a re-analysis of the deposited data

Results flagged for a closer look

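A library was singled out where its gap to the nearest of the other 3 libraries of its genotype as a share of the range of all 4 exceeded the 95% critical value of Dixon's test. Of 90 groups examined, 15 met this. The critical value would give 4.5 for normal values in independent groups. The groups here share libraries and many values are near the floor, so the 2 numbers cannot be compared. WT 2 was the library in 9 of them and the highest of its genotype in each, with 80.5 CPM for *Mki67*, 33.7 CPM for *Ccna2*, 10.6 CPM for *Ccnb2*, 17.6 CPM for *Plk1*, 7.04 CPM for *Aurka*, 20.6 CPM for *Bub1b*, 34.7 CPM for *Cdc20*, 23.6 CPM for *Ube2c* and 41.3 CPM for *Racgap1*. In the other WT libraries these genes lay between 0 (*Plk1* and *Ube2c*) and 15.2 CPM (*Mki67*). WT 2 is also the library of lowest depth, and the cause was not tested.

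In the *Pdgfra-Cre:LmnaF/F* libraries the highest values set apart were those of *Plk1* (3.33 CPM), *Ube2c* (0.333 CPM) and *Ndc80* (1.42 CPM) in *Pdgfra-Cre:LmnaF/F* 4, of *Aurkb* (0.921 CPM) and *Kif11* (13.0 CPM) in *Pdgfra-Cre:LmnaF/F* 3 and of *Bub1* (1.77 CPM) in *Pdgfra-Cre:LmnaF/F* 2. For *Ube2c*, *Ndc80*, *Aurkb* and *Bub1* the other 3 libraries were at 0, so that a few counts in 1 library were enough. *Kif11* rested on 113 counts.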

How the results depend on the processing

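The count of members with an adjusted p under 0.05 was 0 in edgeR, 8 with DESeq2 and 4 without a filter, all of them lower, and 0 in every other setting and left-out library run with the filter. Without a filter it was 9 after thinning (2.15% of all genes) and 0 to 7 when 1 library was left out (1.13% to 2.45%), 0 only without WT 2 (1.33%), and 0 in both runs without WT 2 and a second library. The median log2 fold change of -1.75 lay between -1.92 (the Y-linked covariate) and -1.69 in the other settings with all libraries, between -2.16 and -1.21 when 1 library was left out, at -1.33 without WT 2 and *Pdgfra-Cre:LmnaF/F* 4, and at -0.066 without WT 2 and WT 3. The ratio of the summed CPM, 0.543, lay between 0.483 and 0.701 when 1 library was left out and was 0.839 without WT 2 and WT 3. The last 2 settings and the Y-linked covariate were added after the data were seen. Leaving out WT 2 and WT 3 also turned *Top2a* to 0.36 and *Smc4* to 0.0054, and *Ttk* turned to -0.59 without *Pdgfra-Cre:LmnaF/F* 1, in a range of -0.59 to 2.31 over the fits without 1 library. The fold change of *Lmna* kept its direction and an adjusted p under 0.05 in every setting and left-out library run. Single members moved more than the median with all libraries kept. In limma-voom *Mki67* was at -2.50, *Top2a* at -1.22, *Ect2* at -2.34, *Cdk1* at -2.75, *Cenpf* at -1.10 and *Cdc20* at -1.51, nearer 0 than in the main fit. *Prc1*, at -4.98, was further from 0. The replicate block gave -2.91 for *Mki67* and -5.01 for *Ccnb2*. The filter of 10 counts in every library left 11 members, so no median over 43 was taken. The labels do not say whether the replicate numbers pair the libraries. Correlations of same-numbered libraries were -0.020, -0.042, -0.019 and 0.032, and the highest with another number were 0.025 to 0.055. With the replicate block 0 members passed, the median was -1.69 and 36 genes passed in all. Depth limits members near the floor: most had fewer than 10 counts in some library.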
